A study of Homo sapiens with 9 samples.

Results

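Receptors for myeloid cytokines were followed in HL-60 cells resistant to either of 2 leukaemia drugs. The set holds 9 genes chosen by name: CSF2RA, CSF2RB, IL3RA, IL5RA, CSF3R, CSF1R, KIT, FLT3 and IL6R. Of these 9 genes, 7 were matched by symbol among the 20637 genes of the deposited table, and 5 passed a filter on low values that kept 12569 genes. CSF2RA and IL3RA, which lie side by side in the pseudoautosomal region of the sex chromosomes, were not analysed here, and neither were the other genes of that region (0 of 15 listed genes matched).

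HL-60 is a human acute myeloid leukaemia line of promyelocyte-like cells. HRA cells are HL-60 cells resistant to cytarabine (Ara-C), a nucleoside analogue that stops DNA synthesis, and were grown in 100 nM of it. HRD cells are HL-60 cells resistant to daunorubicin (DNR), an anthracycline that poisons topoisomerase II, and were grown in 30 nM of it. Parental HL-60 cells carry no stated resistance, and no drug in their medium is stated. All groups share the same culture medium with serum, and no added cytokine is stated. Each group has 3 biological replicates of polyadenylated RNA. Whether these came from separate cultures is not stated, so p-values measure the spread between these libraries, which may be partly technical. The labels name only HRA for cytarabine and only HRD for daunorubicin, so resistance, drug in the medium and the history of that line cannot be told apart. In these bulk samples, fewer cells with a transcript and less of it per cell cannot be told apart either.

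As background, these receptors carry the signals that keep blood progenitors alive and steer them into granulocytes and monocytes. CSF2RB is the common beta chain that the receptors of GM-CSF, interleukin-3 and interleukin-5 share. It signals once an alpha chain (CSF2RA, IL3RA or IL5RA) has bound its cytokine. CSF3R, the G-CSF receptor of neutrophils, works as a pair of identical chains, and IL6R binds interleukin-6 and hands the signal to the shared chain IL6ST. All of these use JAK kinases and STAT transcription factors. CSF1R (macrophage growth factor receptor), KIT (stem cell factor receptor) and FLT3 are receptor tyrosine kinases with a kinase of their own.

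Reads per library ran from 20822709 to 66563328, and values are reads scaled by each library's size factor, called normalized read counts. A value of 1.49 to 4.52, depending on the library, stands for 3 reads. Summed over the list, 6 promyelocyte markers (MPO and others) stood at 259040 to 288427 in HRA, 210296 to 268439 in HRD and 288495 to 331088 in parental libraries. MPO, myeloperoxidase, made up nearly all of that sum, with 264812 ± 14630 in HRA, 232664 ± 29370.4 in HRD and 295528 ± 20020.2 in parental cells (SD, n = 3). Among other granule genes of the list, CTSG fell in HRA (4120 ± 299) and in HRD (6728 ± 282) against parental cells (10855 ± 1161). PRTN3 fell in HRA (748 ± 179 against 2423 ± 1048 in parental cells). By the test given below, PRTN3 was not called in HRD against parental cells (1914 ± 978 in HRD). AZU1 was called in no comparison, with 758 ± 159 in HRA, 1094 ± 653 in HRD and 825 ± 342 in parental cells. The marker CD33 was called higher in HRA, with 3046 ± 77.5 against 2478 ± 124 in parental cells. ELANE, neutrophil elastase, had 4 reads in HRA, 2 in HRD and 6 in parental cells. A list of 10 markers of lymphoid, red, platelet, epithelial and stromal cells, 6 of them matched, summed to 7.31 to 47.3 in HRA, 3.21 to 9.04 in HRD and 10.7 to 20.9 in parental libraries, with MS4A1 and COL1A1 at 3 reads or fewer over all 9 libraries.

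Genes were called in a limma fit of all 12569 tested genes at a Benjamini-Hochberg adjusted p below 0.05, and every adjusted p below comes from that fit unless another is named. Against parental cells, HRA cells had 1 receptor higher (IL5RA) and 1 lower (IL6R) of the 5 tested, where 15.2% of all tested genes were called, 9.13% higher and 6.1% lower. HRD cells had 2 higher (CSF2RB and IL5RA) and 1 lower (FLT3) against parental cells, where 22.8% of all tested genes were called, 10.7% higher and 12% lower. Between the resistant lines, HRD was higher than HRA for 2 (CSF2RB and IL6R) and lower for none, where 30.1% of all tested genes were called, 13.9% higher and 16.2% lower. All called receptors differed by at least 2-fold, as did 3.28%, 5.76% and 6.3% of all tested genes, called at that size in HRA against parental, HRD against parental and HRD against HRA cells. The libraries of both groups did not overlap for 3 of the 5 receptors in HRA against parental cells (38% of all tested genes), 3 in HRD against parental cells (35.3%) and 2 in HRD against HRA (47%). The median log2 fold changes of the 5 receptors were −0.33 in HRA and −0.04 in HRD against parental cells and 0.02 in HRD against HRA, beside −0.01, 0.01 and 0.00 for all tested genes.

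**Figure D1:**
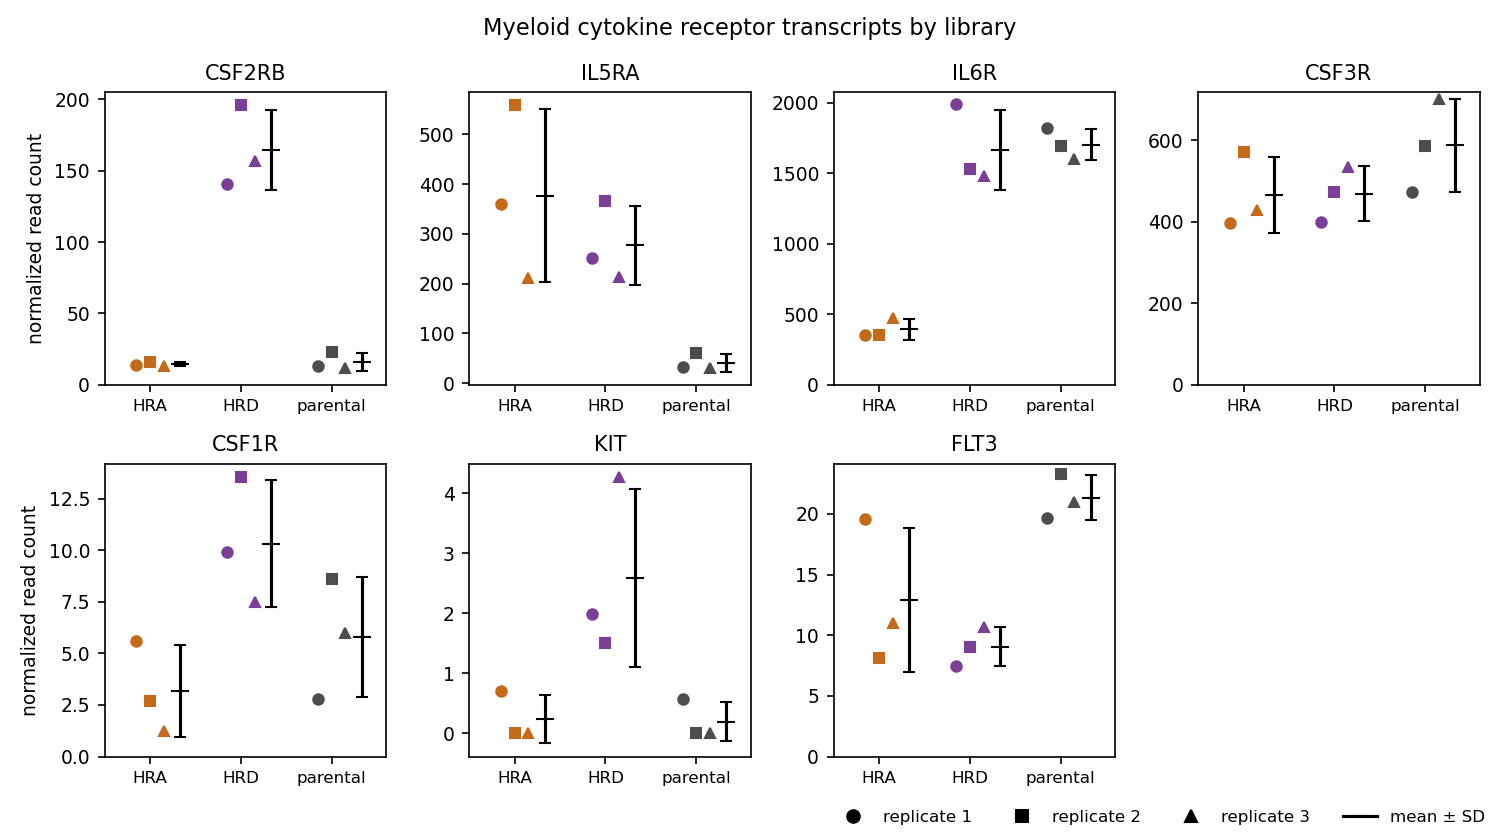
Normalized read counts of the 7 receptors in each library, with HRA, HRD and parental cells from left to right, 1 symbol per replicate number and the mean with its SD (n = 3) as a bar. CSF2RB stands apart in HRD (141 to 196), IL5RA is high in HRA and HRD and low in parental cells, and IL6R is low in HRA (351 to 475).

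Levels per transcript length ranked the receptors, with IL6R and CSF3R far above most others. Values are normalized reads per kilobase of merged exon in the GENCODE v29 annotation, as mean ± SD (n = 3 here and below). In HRA the order was CSF3R (135 ± 26.9), IL6R (65.2 ± 11.9), IL5RA (57.9 ± 26.7), FLT3 (3.35 ± 1.55), CSF2RB (2.98 ± 0.31), CSF1R (0.79 ± 0.56) and KIT (0.04 ± 0.08). In HRD it was IL6R (277 ± 47.1), CSF3R (136 ± 19.3), IL5RA (42.6 ± 12.2), CSF2RB (33.7 ± 5.78), CSF1R (2.59 ± 0.77), FLT3 (2.36 ± 0.42) and KIT (0.50 ± 0.29). In parental cells it was IL6R (283 ± 18.0), CSF3R (170 ± 33.1), IL5RA (6.28 ± 2.72), FLT3 (5.55 ± 0.48), CSF2RB (3.29 ± 1.29), CSF1R (1.45 ± 0.73) and KIT (0.04 ± 0.06). Libraries of neighbours in the order overlapped for IL6R with IL5RA and FLT3 with CSF2RB in HRA, for IL5RA with CSF2RB and CSF1R with FLT3 in HRD, and for IL5RA with FLT3 in parental cells. The exon lengths are those of another annotation than the counting used, so these levels rank the genes only roughly.

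CSF2RB, the common beta chain, was high in HRD cells and at the parental level in HRA cells. Its normalized read counts were 141, 196 and 157 in HRD replicates 1, 2 and 3, 14.0, 16.2 and 13.4 in HRA replicates, and 12.9, 23.3 and 12.0 in parental replicates. Every HRD library lay above every library of the other groups, while HRA and parental libraries overlapped. CSF2RB rose 10.0-fold in HRD against parental cells (log2 fold change 3.32 ± 0.29, SE, adjusted p = 1.78e-05) and stood 10.6-fold higher in HRD than in HRA (3.41 ± 0.29, adjusted p = 1.41e-05). In HRA against parental cells the value was −0.08 ± 0.29 (adjusted p = 0.879). The whole reads behind these values are 561 in HRD, 43 in HRA and 50 in parental cells. The pseudogene CSF2RBP1 lies next to CSF2RB on chromosome 22, and how reads that match both were counted is not given in the sources used here.

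Some genes around CSF2RB also differed in HRD. Among its 10 nearest tested neighbours, HRD against parental cells had 4 higher and 1 lower, beside 22.8% of all tested genes called. The median log2 fold change of the 10 was 0.75, while the 262 tested genes of chromosome 22 had a median of 0.02. In HRD against HRA 4 were higher and 1 lower, beside 30.1% of all tested genes called. There the median of the 10 was 0.083, and that of the chromosome was 0.085. In HRA against parental cells 0 of the 10 rose and 2 fell, with a median of 0.05. The nearest tested gene on one side, NCF4, a subunit of the phagocyte NADPH oxidase that was singled out after its values were seen, stood at 535, 1115 and 1075 in HRD, at 101, 141 and 90.2 in HRA and at 218, 173 and 237 in parental replicates. Its log2 fold change was 2.05 ± 0.27 in HRD against parental cells (adjusted p = 0.000343). In HRA against parental cells it was −0.93 ± 0.27 (adjusted p = 0.0400), a call lost on omitting parental replicate 1 or 3 (0.0907 and 0.117), on omitting HRA replicate 1 or 3 (0.123 and 0.117) and with no filter (0.0527).

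IL5RA, the interleukin-5 receptor alpha chain of eosinophils, was high in both resistant lines. The normalized read counts were 361, 559 and 212 in HRA replicates 1, 2 and 3, 253, 366 and 214 in HRD replicates, and 31.4, 61.3 and 30.0 in parental replicates. All resistant libraries lay above all parental ones, and HRA and HRD libraries overlapped. IL5RA rose 8.83-fold in HRA (3.14 ± 0.36, SE, adjusted p = 0.00036) and 6.83-fold in HRD against parental cells (2.77 ± 0.36, adjusted p = 0.000318). Both values share the parental libraries. The difference of HRD from HRA was −0.37 ± 0.36 (adjusted p = 0.468). On chromosome 3, 5 tested neighbours of IL5RA were found, all on the same side, since no tested gene lies on its other side. None of these 5 was called by limma in any of the 3 comparisons, and their medians were 0.04 in HRA and 0.02 in HRD against parental cells. Of all tested genes 15.2% were called in HRA against parental cells, 22.8% in HRD against parental cells and 30.1% in HRD against HRA.

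The 250 bases before the start of IL5RA are shown because this transcript rose in both resistant lines, and those of IL6R because it fell in HRA. Both come from the RefSeq gene table of GRCh38.p14, and are written on the strand of the gene. Capitals mark the ETS core GGAA on either strand, the letters that factors such as PU.1 (SPI1) contain in their sites. IL5RA lies on the minus strand at chr3:3110375-3110624, and IL6R on the plus strand at chr1:154405093-154405342.
IL5RA: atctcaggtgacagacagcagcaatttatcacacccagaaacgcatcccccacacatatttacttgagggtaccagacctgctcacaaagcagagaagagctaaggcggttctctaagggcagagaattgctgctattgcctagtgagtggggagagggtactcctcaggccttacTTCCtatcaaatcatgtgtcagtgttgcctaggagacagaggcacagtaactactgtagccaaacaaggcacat
IL6R: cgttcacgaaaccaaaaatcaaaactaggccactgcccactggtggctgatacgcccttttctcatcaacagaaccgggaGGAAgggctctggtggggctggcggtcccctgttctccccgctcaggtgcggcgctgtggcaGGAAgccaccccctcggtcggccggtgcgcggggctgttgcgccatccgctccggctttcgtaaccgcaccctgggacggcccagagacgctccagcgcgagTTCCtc
IL5RA holds 1 ETS core in this window and IL6R holds 3, and 92.7% of all 35116 windows of that length hold at least 1. Searched on both strands, each in 1 fixed spelling, 3 other motifs were not found in either window. The C/EBP motif TTGCNNAA occurs in 9.05% of all windows. The motif of RUNX factors, TGTGGT, occurs in 11.0% of them. That of the erythroid and eosinophil zinc-finger factors, AGATAA, occurs in 9.17%. The related spelling TGATAA was not searched, and the IL5RA window holds it on the other strand, as ttatca. CSF2RB has no entry shown here.

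Most other eosinophil genes tested were also higher, so their level is given beside IL5RA. Of 8 eosinophil markers 6 were tested, of which 4 rose in HRA and all 6 rose in HRD against parental cells. All 6 were higher in HRD than in HRA. Of all tested genes 9.13%, 10.7% and 13.9% were called higher in these 3 comparisons. EPX, eosinophil peroxidase, averaged 938 ± 105 in HRA, 5655 ± 1817 in HRD and 217 ± 110 in parental cells. CLC, the Charcot-Leyden crystal protein, averaged 2264 ± 386 in HRA, 21467 ± 6532 in HRD and 363 ± 197 in parental cells. PRG2 had the highest mean of the list in all 3 groups and was not called in HRA against parental cells. It averaged 15451 ± 2923 in HRA, 84628 ± 43759 in HRD and 17058 ± 8551 in parental cells, and so weighs most in the sums. The summed level of the 8 markers ran from 28783 to 33457 in HRA, from 87441 to 192646 in HRD and from 14260 to 34060 in parental libraries, so HRA and parental sums overlapped. The surface markers CCR3 and SIGLEC8 stayed near the floor, with 8 and 10 reads in HRA, 39 and 27 in HRD, and 9 and 5 in parental cells. Whether the eosinophil genes have a part in the IL5RA values was not tested.

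Replicate 2 held the highest IL5RA value and the highest CSF2RB value in all 3 groups. Taken between libraries of the same replicate number, the log2 difference of IL5RA ran from 2.78 to 3.48 in HRA against parental cells and from 2.56 to 2.97 in HRD against parental cells. For CSF2RB it ran from 3.02 to 3.61 in HRD against parental cells, from 3.25 to 3.51 in HRD against HRA and from −0.50 to 0.15 in HRA against parental cells.

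**Figure D2:**
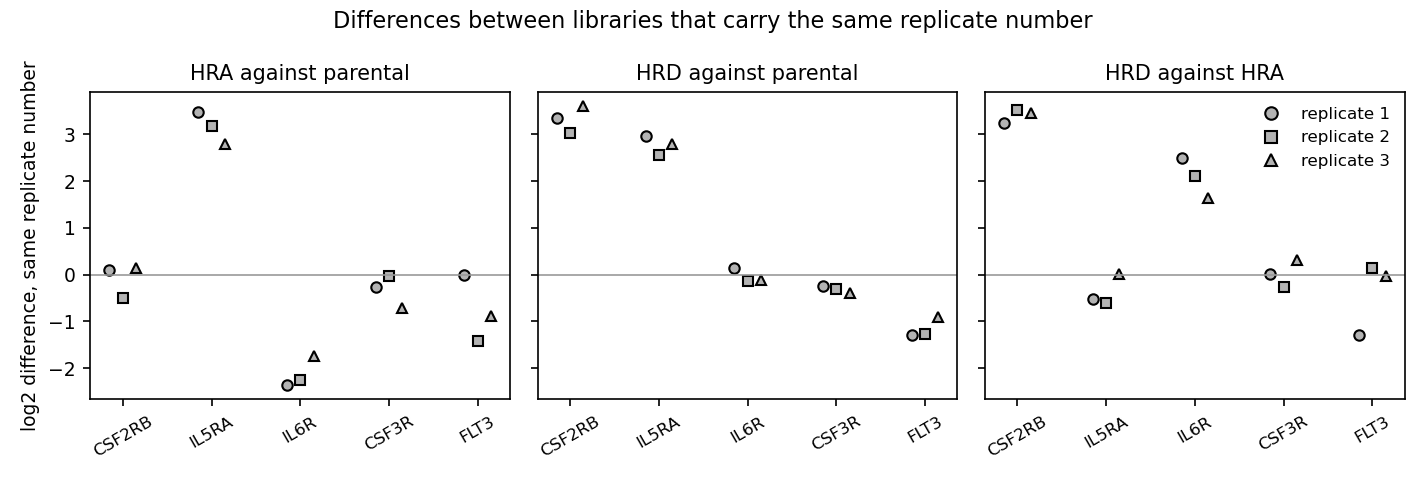
Log2 difference of log2(normalized read count + 1) between the libraries that carry the same replicate number, for the 5 tested receptors in the 3 comparisons. For IL5RA in HRA and HRD, and for CSF2RB in HRD, all 3 symbols lie above 2.5, and for IL6R in HRA all lie below −1.7.

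IL6R, the interleukin-6 binding chain, was the most abundant receptor per kilobase in parental cells and fell in HRA cells. It stood at 351, 352 and 475 in HRA replicates 1, 2 and 3, at 1993, 1530.5 and 1478 in HRD replicates, and at 1818, 1692 and 1602 in parental replicates. All HRA libraries lay below all others, and HRD and parental libraries overlapped. IL6R fell 4.37-fold in HRA against parental cells (−2.13 ± 0.14, SE, adjusted p = 2.31e-05) and stood 4.24-fold higher in HRD than in HRA (2.09 ± 0.14, adjusted p = 3.03e-06). In HRD against parental cells the value was −0.04 ± 0.14 (adjusted p = 0.868). None of the 10 nearest tested genes on chromosome 1 was called by limma in HRA against parental cells, beside 15.2% of all tested genes. Their median there was −0.12. In HRD against parental cells 1 of the 10 was higher and 1 lower, beside 22.8% of all tested genes called. In HRD against HRA 5 were higher and 2 lower, beside 30.1% of all tested genes called. There the median of the 10 was 0.24, and that of the chromosome was 0.086. IL6ST, the gp130 chain that transmits the IL6R signal, averaged 259 ± 25.7 in HRA, 247 ± 17.7 in HRD and 254 ± 77.7 in parental cells, and was not called in HRA or HRD against parental cells (adjusted p = 0.849 and 0.995).

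CSF3R, the G-CSF receptor, was not called in any comparison. The values were 396, 571 and 429 in HRA replicates, 399.9, 473 and 533 in HRD replicates, and 473, 586 and 701 in parental replicates. All 3 groups overlapped. The log2 fold changes were −0.33 ± 0.18 in HRA and −0.31 ± 0.18 in HRD against parental cells (adjusted p = 0.228 and 0.237), and 0.02 ± 0.18 in HRD against HRA (adjusted p = 0.948). Late neutrophil markers, 7 of 8 matched, summed to 40.2 to 70.3 in HRA, 79.4 to 157 in HRD and 49.4 to 92.9 in parental libraries. Of the 2 tested, MMP9 was called higher in HRD, with 45.5 ± 31.6 against 7.20 ± 4.87 in HRA and 2.31 ± 2.25 in parental cells. CXCR2 was not called, with 35.5 ± 4.94 in HRA, 55.3 ± 8.94 in HRD and 65.2 ± 23.7 in parental cells. CXCR1 in that list had 3 reads or fewer over all 9 libraries.

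FLT3, a receptor tyrosine kinase of early progenitors, was scarce in all groups. Its values were 7.44, 9.04 and 10.7 in HRD replicates, 19.5, 8.12 and 11.0 in HRA replicates, and 19.6, 23.3 and 21.0 in parental replicates. HRD and HRA libraries each lay below the parental ones, HRA replicate 1 only just. In HRD against parental cells the log2 fold change was −1.16 ± 0.37 (adjusted p = 0.0411), from 31 reads in HRD and 68 in parental cells. This call was lost on omitting parental replicate 1, 2 or 3 (adjusted p = 0.0788, 0.109 and 0.0814) and on omitting HRD replicate 1, 2 or 3 (0.0974, 0.0907 and 0.0588). It was also lost with no filter on low values (0.0988) and in DESeq2 (0.0800). In HRA against parental cells the value was −0.77 ± 0.37 (adjusted p = 0.179), and in HRD against HRA it was −0.39 ± 0.37 (adjusted p = 0.446). Values moved by leaving out HRA replicate 1 reached −1.09 in HRA against parental cells and −0.07 in HRD against HRA.

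CSF1R and KIT lay below the filter and were examined only in the fit with no filter. CSF1R, the receptor that macrophages depend on, stood at 9.92, 13.6 and 7.48 in HRD replicates, 5.58, 2.71 and 1.22 in HRA replicates, and 2.81, 8.59 and 5.995 in parental replicates. HRD libraries lay above HRA libraries but overlapped the parental ones. Its reads summed to 36 in HRD, 11 in HRA and 16 in parental cells, and no comparison passed with no filter (adjusted p = 0.429 in HRD and 0.495 in HRA against parental cells, 0.0733 in HRD against HRA). The ratio of depth-scaled reads was 2.03 in HRD against parental cells, with an exact 95% interval of 1.10 to 3.92 that covers counting error only. Monocyte and macrophage markers, 7 of 8 matched, summed to 725 to 1266 in HRA, 414 to 619 in HRD and 301 to 440.5 in parental libraries. FCGR1A, an Fc receptor, made up most of the HRA sum, with 723 ± 227 in HRA, 227 ± 40.8 in HRD and 128 ± 21.6 in parental cells, while CD68 averaged 152 ± 39.3 in HRA, 249 ± 59.9 in HRD and 185 ± 35.4 in parental cells. Against parental cells FCGR1A was called higher in HRA and in HRD, and CD68 was called in neither. VCAN was called lower in HRD against parental cells, from 4 reads in HRD and 17 in parental cells. It averaged 12.1 ± 0.18 in HRA, 1.04 ± 1.07 in HRD and 4.91 ± 1.68 in parental cells. MS4A7 averaged 45.4 ± 24.0 in HRA, 15.1 ± 10.7 in HRD and 39.4 ± 23.3 in parental cells. VCAN, MS4A7 and FCGR1A were called lower in HRD than in HRA, and CD68 was called higher. MRC1 had 0 reads in HRA, 3 in HRD and 3 in parental cells, and CD163 had 9, 16 and 3. CD14 in that list had 0 reads in HRA, 4 in HRD and 0 in parental cells.

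KIT, the stem cell factor receptor of progenitors and mast cells, was close to undetected. It had 4, 1 and 4 reads in HRD replicates 1, 2 and 3, 1, 0 and 0 in HRA replicates, and 1, 0 and 0 in parental replicates. The ratio of depth-scaled reads was 8.13 in HRD against parental cells, with an exact 95% counting interval of 1.13 to 356. With no filter, KIT passed in HRD against parental cells and in HRD against HRA (adjusted p = 0.0256 and 0.0240), on 9 reads against 1 in each. Mast cell and basophil markers summed to 148 to 160.3 in HRD, 78.2 to 96.0 in HRA and 49.5 to 57.7 in parental libraries. HDC, histidine decarboxylase, weighed most in these sums, with 104 ± 6.90 in HRD, 66.8 ± 9.15 in HRA and 28.6 ± 7.32 in parental cells. MS4A2 averaged 40.9 ± 12.0 in HRD, 19.2 ± 6.92 in HRA and 24.3 ± 3.59 in parental cells. MS4A2 was called higher in HRD than in HRA, and in neither line against parental cells. In HRD, HRA and parental cells TPSB2 had 6, 0 and 4 reads, CPA3 10, 3 and 0, and FCER1A 14, 1 and 0. In that list TPSAB1 and CMA1 had 3 reads or fewer over all 9 libraries. Whether the genes of that list have a part in the KIT reads was not tested.

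**Figure D3:**
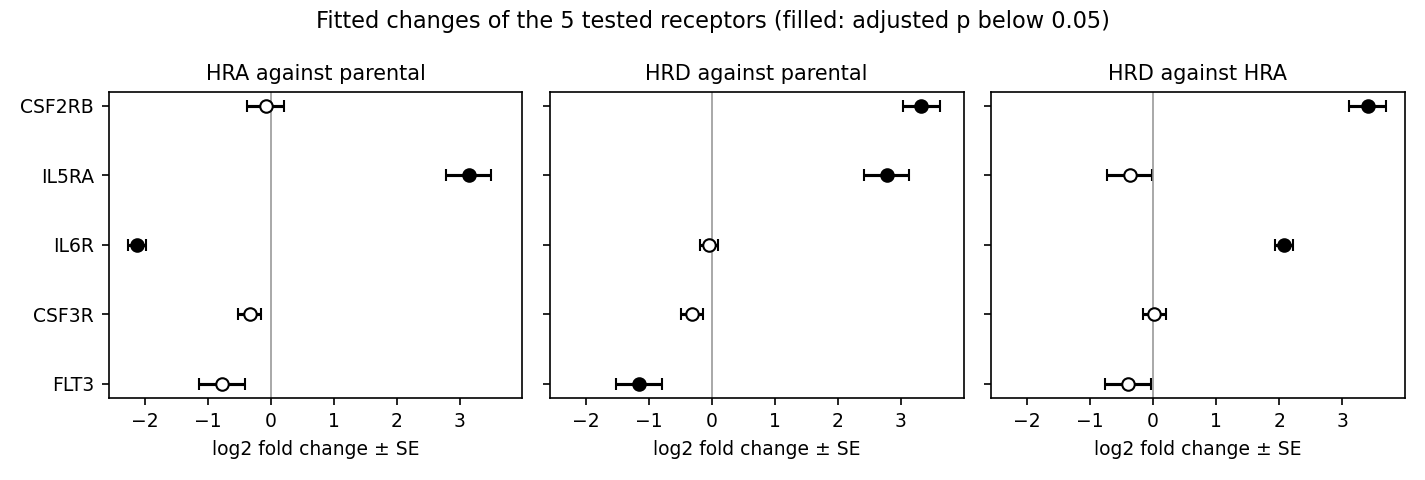
Fitted log2 fold changes with SE of the 5 tested receptors in HRA against parental, HRD against parental and HRD against HRA cells, with filled symbols for an adjusted p below 0.05. CSF2RB is called in both HRD panels, IL5RA in both comparisons with parental cells, IL6R in both comparisons that involve HRA, FLT3 in HRD against parental cells, and CSF3R in none.

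The counts of called genes in the lists that follow stand beside 15.2% of all tested genes called in HRA against parental cells, 22.8% in HRD against parental cells and 30.1% in HRD against HRA.

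Of 9 ligand genes 6 were matched and 2 were tested, and neither was called by limma. KITLG, the stem cell factor, averaged 265 ± 49.4 in HRA, 190.2 ± 41.9 in HRD and 229 ± 44.7 in parental cells. FLT3LG averaged 116 ± 35.2 in HRA, 77.2 ± 28.8 in HRD and 75.3 ± 10.4 in parental cells. IL5, CSF3, CSF1 and IL34 had between 0 and 8 reads summed over the 3 libraries of any group.

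Below the receptors, STAT5A rose in HRA and fell in HRD, and STAT5B and STAT3 fell in HRD. STAT5A, a transcription factor activated by GM-CSF, IL-3 and IL-5 receptors, stood at 1783, 2048 and 1873 in HRA replicates, 182, 276 and 198 in HRD replicates, and 691, 930.0 and 920.3 in parental replicates. No libraries of different groups overlapped. STAT5A rose 2.26-fold in HRA (1.18 ± 0.16, SE, adjusted p = 0.00106) and fell 3.89-fold in HRD against parental cells (−1.96 ± 0.16, adjusted p = 1.29e-05). The difference of HRD from HRA was −3.14 ± 0.16 (adjusted p = 2.44e-07). STAT5B, its close paralogue, averaged 1132 ± 111 in HRD, 2788 ± 188 in HRA and 2403 ± 204 in parental cells, and was called only in the comparisons of HRD (−1.09 against parental cells and −1.30 against HRA). STAT3, the main STAT of IL-6 signalling, fell in HRD against parental cells by 0.63 on the log2 scale, to 1807 ± 102 in HRD against 2806 ± 418 in parental cells. Reads that match both STAT5 genes could be split or dropped, so their separate values are uncertain.

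STAT5B, STAT5A and STAT3 are neighbours on chromosome 17, with no other tested gene between them in the reference order. Of the 10 tested genes next to this trio, 9 fell and 0 rose in HRD against parental cells, with a median of −0.92, where the 636 other tested genes of chromosome 17 had a median of −0.18. In HRA against parental cells none of those 10 was called by limma, and their median was −0.03. Of the 9 tested of 11 JAK and STAT genes, 2 rose and 0 fell in HRA (median 0.18), and 1 rose and 3 fell in HRD against parental cells (median 0.01). JAK1 was higher in HRA by 0.32 (adjusted p = 0.0346), a call lost on omitting parental replicate 1 or 3 (0.0998 and 0.0677) and on omitting HRA replicate 1, 2 or 3 (0.104, 0.143 and 0.0523), and with no filter (0.0511). JAK2, the kinase bound to CSF2RB, was not called (0.03 ± 0.11 in HRA and 0.18 ± 0.11 in HRD against parental cells, adjusted p = 0.865 and 0.270).

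**Figure D4:**
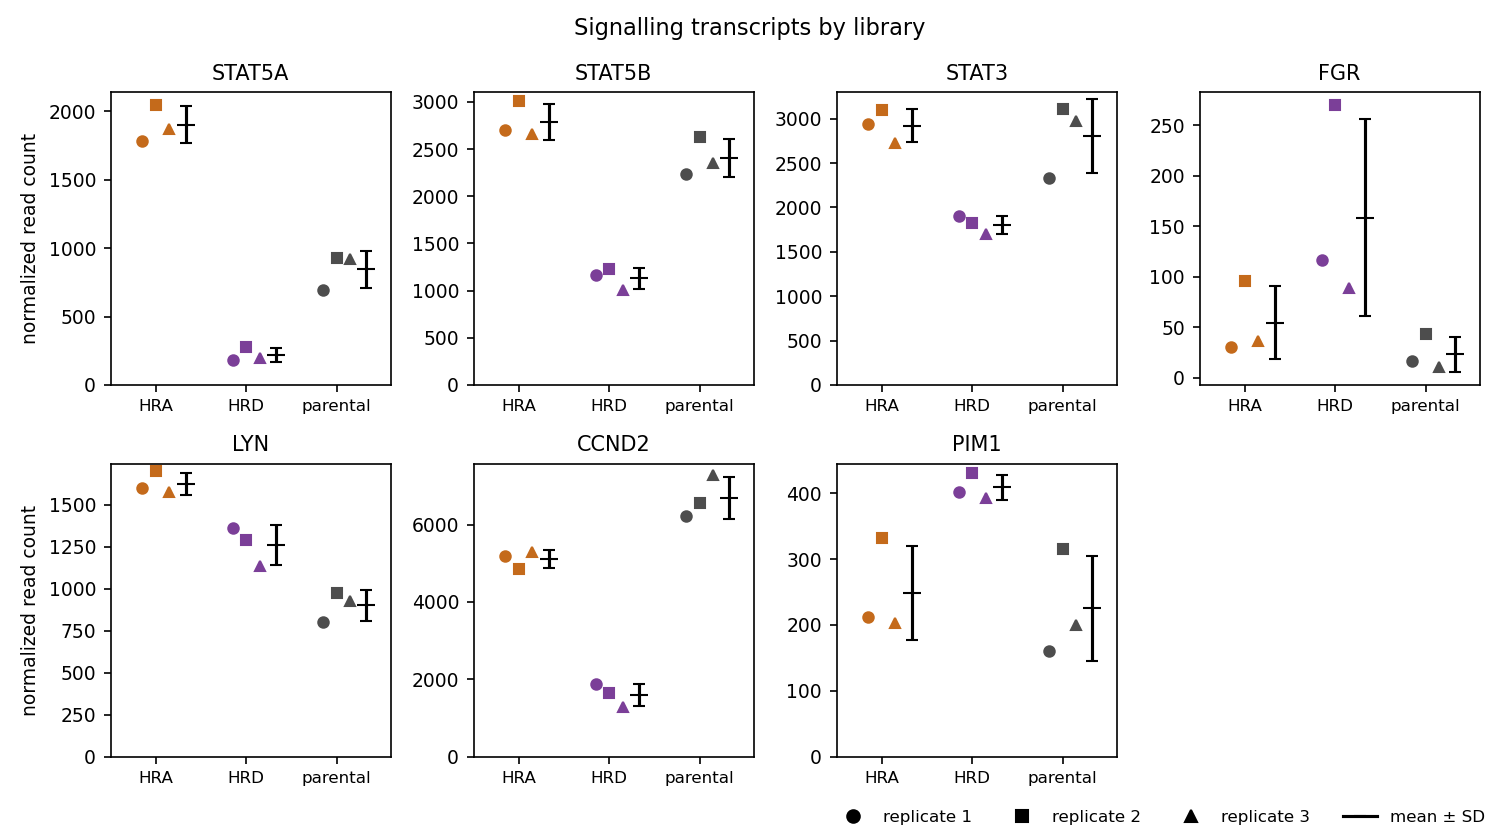
Normalized read counts of 7 signalling genes in each library, with HRA, HRD and parental cells from left to right, 1 symbol per replicate number and the mean with its SD (n = 3). STAT5A lies highest in HRA and lowest in HRD, and CCND2 lies lowest in HRD (1291 to 1866).

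FGR, a myeloid kinase of the Src family, rose in HRD. Of 20 tested adaptors, kinases and RAS genes, 7 rose and 3 fell in HRD against parental cells (median 0.21), and 2 rose and 0 fell in HRA (median 0.08). FGR stood at 116.6, 269.6 and 88.7 in HRD replicates, 30.7, 96.0 and 36.5 in HRA replicates, and 16.3, 42.9 and 10.5 in parental replicates. HRD libraries lay above all parental ones, while HRD and HRA libraries overlapped. FGR rose by 2.78 ± 0.57 in HRD against parental cells (adjusted p = 0.0051). PIK3CG (0.78), the gamma subunit of phosphoinositide 3-kinase, and the kinase FES (0.77) rose in HRD too. LYN, the Src-family kinase that binds the common beta chain, rose by 0.85 ± 0.10 in HRA. In HRD against parental cells LYN was higher by 0.49 (adjusted p = 0.00595). It averaged 1625 ± 66.3 in HRA, 1262 ± 117 in HRD and 901 ± 90.5 in parental cells. The median of all 356 genes tested on its chromosome, number 8, was 0.50 in HRA and 0.16 in HRD. SYK rose by 0.72 in HRA, to 6839 ± 730 against 4216 ± 960.4 in parental cells. In HRD SYK averaged 5772 ± 622 and was higher than in parental cells by 0.47 (adjusted p = 0.0377). That call was lost on omitting parental replicate 1 or 3 (0.107 and 0.136) or HRD replicate 1 or 2 (0.0805 and 0.122). It was also lost with no filter (0.0509) and with only the libraries of HRD and parental cells (0.0667).

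In HRD against HRA, 3 of those 20 genes were higher and 2 lower. PIK3CG was 0.40 higher, a call lost on omitting HRA replicate 1 or 2 (adjusted p = 0.0893 and 0.0850) and on omitting HRD replicate 1 or 2 (0.0526 and 0.0841). LYN was lower by 0.37, lost on omitting HRA replicate 1 or 2 or HRD replicate 3 (0.0564, 0.0698 and 0.0668).

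Among negative regulators, SPRED1 fell in HRA, SOCS7 and SH2B3 fell in HRD and PTPN6 rose in HRD. Of 24 tested genes, 1 rose and 3 fell in HRA (median −0.09), and 2 rose and 2 fell in HRD against parental cells (median 0.00). SPRED1, an inhibitor of RAS signalling, fell by 0.54 in HRA. The calls of PIAS3 and SPRY2, lower in HRA by 0.42 and 0.38, depended on single libraries. PIAS3 was lost on omitting parental replicate 2 or 3 (adjusted p = 0.0660 and 0.0702) and on omitting HRA replicate 1 or 3 (0.106 and 0.0656). SPRY2 was lost on omitting parental replicate 1 or 2 (0.100 and 0.0861) and on omitting HRA replicate 1, 2 or 3 (0.0830, 0.134 and 0.0750). In HRD, SOCS7 fell by 0.98 ± 0.13 and the adaptor SH2B3 (LNK), which restrains JAK2, fell by 0.64, while the phosphatase PTPN6 (SHP-1) rose by 0.39. INPP5D (SHIP1) was 0.31 higher in HRD, a call lost on omitting parental replicate 1 or 3 (0.0983 and 0.0919), on omitting HRD replicate 1 or 2 (0.0530 and 0.0995) and with only the libraries of HRD and parental cells (0.0674).

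Between the resistant lines, 4 of those 24 genes were higher and 2 lower in HRD than in HRA. SPRY2 stood 0.59 and SPRED1 0.50 higher, and SOCS7 was lower by 0.61. SH2B3 was lower by 0.50, a call lost on omitting HRA replicate 1, 2 or 3 (adjusted p = 0.0867, 0.0727 and 0.0551) and on omitting HRD replicate 1 or 3 (0.0644 and 0.0852).

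Among genes known to be induced by these cytokines, CCND2 fell in HRD. Of 17 tested, 0 rose and 1 fell in HRA (median 0.02), and 4 rose and 2 fell in HRD against parental cells (median 0.26). CCND2, the D-type cyclin induced by STAT5, was lower in HRD, with 1866, 1642 and 1291 in HRD replicates, 5186, 4862 and 5299 in HRA replicates, and 6217, 6553 and 7278 in parental replicates. HRD libraries lay below all others, with a log2 fold change of −2.08 ± 0.12 against parental cells (adjusted p = 6.68e-07) and −1.69 against HRA. The median of all 613 genes tested on its chromosome, number 12, was −0.28 in HRD. CISH and SOCS2, STAT5-induced feedback inhibitors, were not called in any comparison by limma. CISH averaged 107 ± 0.75 in HRA, 102 ± 0.76 in HRD and 127 ± 30.3 in parental cells.

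PIM1, a kinase gene induced by STAT5, was higher in HRD by 0.91 against parental cells (adjusted p = 0.0193), a call lost on omitting parental replicate 1 or 3 (0.0672 and 0.0626) and on omitting HRD replicate 2 (0.0559). Against HRA it was 0.75 higher, lost on omitting HRA replicate 1 or 3 (0.126 and 0.122) and on omitting HRD replicate 1, 2 or 3 (0.0784, 0.0856 and 0.0703). FOS was higher in HRD by 1.20, lost on omitting parental replicate 1 (0.0546), and BCL6 by 0.93, lost on omitting HRD replicate 2 (0.0609). CCND3 was lower in HRA by 0.44, lost on omitting parental replicate 2 (0.0730) and on omitting HRA replicate 1 or 3 (0.0897 and 0.0730). CCND3 stood 0.74 higher and the survival gene MCL1 0.40 higher in HRD than in HRA.

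**Figure D5:**
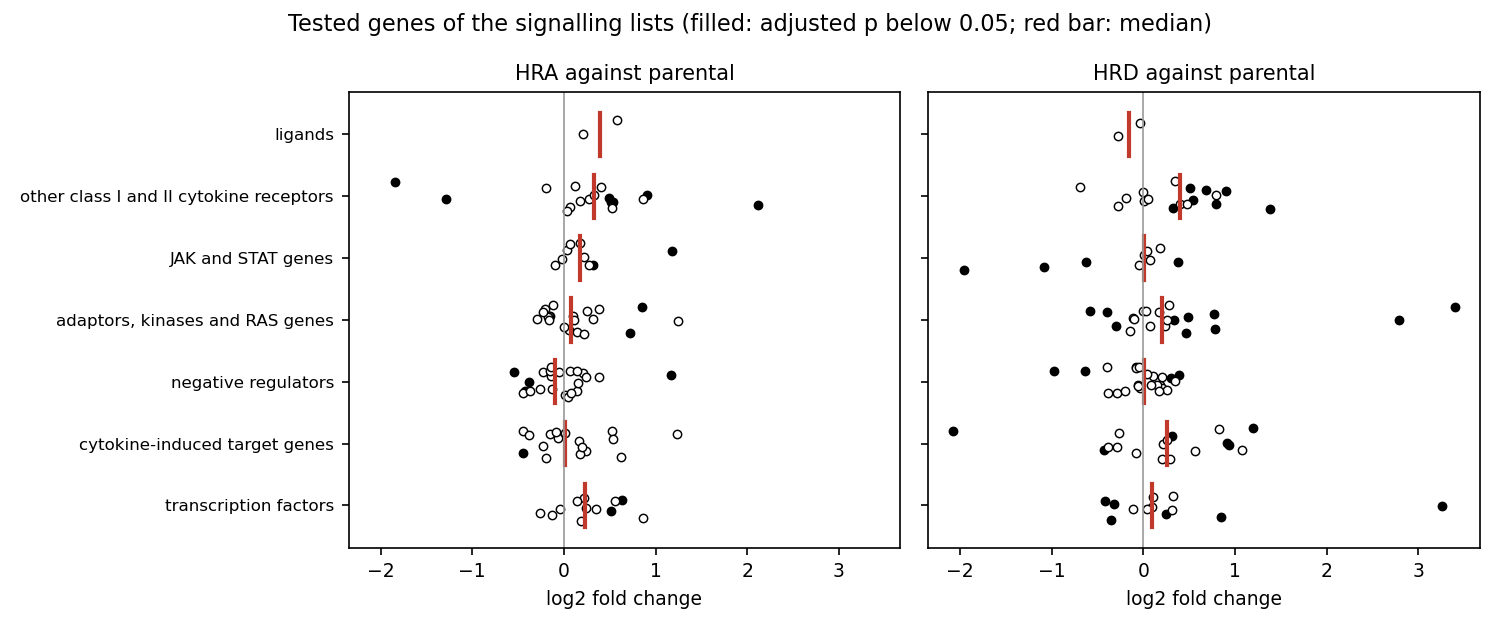
Log2 fold change of each tested gene of 7 signalling lists in HRA and in HRD against parental cells, with filled symbols for an adjusted p below 0.05 and a red bar for the list's median. The points far left in HRD are CCND2 (−2.08) and STAT5A (−1.96).

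Among 17 tested receptors of other class I and II cytokines, 5 rose and 2 fell in HRA (median 0.33), and 7 rose and 0 fell in HRD against parental cells (median 0.40). IFNAR2, IL10RB, IFNAR1 and IFNGR2, which bind interferons and interleukin-10, are neighbours on chromosome 21, and the 93 other tested genes of that chromosome had medians of 0.17 in HRA and 0.32 in HRD. IFNAR1 rose by 0.53 in HRA, IFNAR2 by 0.54 in HRD and IFNGR2 by 0.68 in HRD. IFNAR1 was also higher by 0.33 in HRD, lost on omitting parental replicate 1 or 3 (adjusted p = 0.0797 and 0.0701). That call was lost too on omitting HRD replicate 2 or 3 (0.0973 and 0.0507). IFNAR2 was also higher by 0.49 in HRA, lost on omitting HRA replicate 1 or 2 (0.0561 and 0.0681). IFNGR2 was not called in HRA. IFNGR1, on chromosome 6, rose by 0.51 in HRD against parental cells (adjusted p = 0.00159). IL10RB was higher by 0.90 in HRA, lost on omitting parental replicate 3 (adjusted p = 0.0538) or HRA replicate 1 or 2 (0.0501 and 0.0629), and by 0.79 in HRD, lost on omitting parental replicate 1 or 3 (0.0596 and 0.0670) or HRD replicate 2 (0.0611). IL27RA was 0.52 higher in HRA, lost on omitting HRA replicate 2 or 3 (0.0641 and 0.0518), and lower in HRD than in HRA by 0.50. LEPR, the leptin receptor, fell by 1.28 in HRA and rose by 0.90 in HRD, and stood 2.19 higher in HRD than in HRA. It averaged 41.9 ± 10.3 in HRA, 191 ± 16.5 in HRD and 102 ± 2.46 in parental cells, and it overlaps LEPROT, so its reads may be shared.

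In HRD against HRA, 3 of these 17 receptors were higher and 3 lower. IFNGR1 stood 0.34 higher, a call lost on omitting HRA replicate 3 (adjusted p = 0.0517). IL2RG, the common gamma chain, was lower by 0.40, lost on omitting HRA replicate 2 (0.0716) or HRD replicate 1 or 3 (0.0581 and 0.0514). Of the related kinases PDGFRA, PDGFRB, FLT1, KDR and FLT4, only FLT4 was tested, and it was not called in any comparison by limma.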

How the data were processed

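RNA of 9 libraries was analysed from the deposited table alone. Per the submitters' processing notes, HTSeq 0.11.1, Cufflinks 2.2.1, DESeq2, Picard, TopHat2 2.1.1 and Bowtie2 2.3.5.1 were used with the assembly hg19. Their roles, the annotation and the strand setting are not given in the sources used here. The deposited signal holds reads counted per gene and scaled by each library's size factor. All values (100%) were whole multiples of 1 constant per library within 0.001, so whole reads were recovered.

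Genes at 10 or more in at least 3 libraries were tested (12569 of 20637). Values were transformed as log2(value + 1), which understates folds of low values, and tested with limma 3.58.1 under R 4.3.3, with a trended variance over all 9 libraries. On whole reads, edgeR 4.0.16 with a quasi-likelihood fit called 15.3%, 22.7% and 30.2% of the genes in HRA against parental, HRD against parental and HRD against HRA cells, and DESeq2 1.42.0 was also run. The limma test was tested on simulated data. Counting intervals cover counting error only.

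Deviations of same-numbered HRA and parental libraries correlated at 0.22, 0.38 and 0.14, each above 0.1, so the replicate numbers were taken to pair those libraries. The reported adjusted p-values come from the fit without that pairing, and the replicate block was tried as an alternative in all 3 comparisons. The lowest correlation was −0.08 for HRD and parental and −0.03 for HRD and HRA libraries.

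Named genes were the 9 receptors and, from each list, up to 4 called genes of each comparison with the largest change whose higher group averaged 100 or more. Some genes that this rule names are not reported here. The receptors and lists were chosen with earlier results of these data known. Neighbours, chromosomes and promoters come from RefSeq on GRCh38.p14, matched by symbol. Alternatives were other pseudocounts, filters, a quantile normalization, fits of 6 libraries, a replicate block, other tools and leaving out each library. Python with matplotlib 3.10.9, scipy 1.17.1, pandas 2.3.3 and numpy 2.4.6 made tables and figures.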

Additional observations from a re-analysis of the deposited data

How the results depend on the processing

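The calls of CSF2RB, IL5RA and IL6R held under all 15 alternatives of each comparison that called them. Their log2 fold changes there ran from 3.10 to 3.61 for CSF2RB in HRD against parental cells, from 2.806 to 3.502 and 2.55 to 3.10 for IL5RA in HRA and HRD, and from −2.27 to −2.05 for IL6R in HRA. FLT3 decided the other count, the number of receptors lower in HRD against parental cells. That number was 0 with no filter and in DESeq2, and ran from 0 to 0 when libraries were left out in turn. With a filter of 50 the number was 0 because FLT3 did not pass that filter and was not tested. Adjusted p-values of FLT3 in HRD ran from 0.0272 to 0.109 over its alternatives. With the replicate number as a block the counts of receptors stayed at 1 higher and 1 lower in HRA, 2 and 1 in HRD, and 2 and 0 in HRD against HRA, while 22.1%, 28.95% and 37.2% of all tested genes were called. With no filter 7.80%, 12.6% and 16.6% of genes were called, the genes added having few reads. Leaving out libraries in turn gave 7.19% to 12.2% in HRA, 16.2% to 23.1% in HRD and 19.0% to 26.1% in HRD against HRA. Among the receptors, signs turned only in values that were not called. Leaving out libraries in turn gave −0.25 to 0.20 for CSF2RB in HRA, above 0 without parental replicate 2 (0.20). It gave −0.178 to 0.0375 for IL6R in HRD, above 0 without parental replicate 1 (0.0049) or HRD replicate 2 (0.0123) or 3 (0.0375). It gave −0.0879 to 0.176 for CSF3R in HRD against HRA, below 0 without HRA replicate 1 (−0.0879) or 3 (−0.0302) or HRD replicate 3 (−0.0786). FLT3, CSF1R and KIT rest on 1 to 68 reads per group, and CSF2RB on 43 reads in HRA and 50 in parental cells.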

Other observations

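Of 12 tested transcription factors known at promoters of myeloid receptor genes, 2 rose and 0 fell in HRA (median 0.23), where 15.2% of all tested genes were called. In HRD against parental cells 3 rose and 3 fell (median 0.10), beside 22.8% of all tested genes. In HRD against HRA 3 were higher and 4 lower (median −0.15), beside 30.1% of all tested genes. CEBPA, which drives granulocyte receptor genes, rose by 0.63 in HRA and stood lower in HRD than in HRA by 1.05. In HRD against parental cells CEBPA was lower by 0.42, a call lost on omitting parental replicate 1, 2 or 3 (adjusted p = 0.0874, 0.0601 and 0.0619) and on omitting HRD replicate 1 or 2 (0.0805 and 0.113). SPI1 (PU.1) was 0.51 higher in HRA (adjusted p = 0.0453), lost on omitting parental replicate 2 or 3 (0.111 and 0.143), on omitting HRA replicate 1, 2 or 3 (0.143, 0.122 and 0.0751) and with no filter (0.0611). RUNX1 fell by 0.35 in HRD against parental cells and stood lower than in HRA by 0.54. GATA2 was 0.84 higher in HRD, lost on omitting parental replicate 3 (0.0656) or HRD replicate 2 (0.0677). ETV6 was lower in HRD by 0.32, lost on omitting parental replicate 2 or 3 (0.0582 and 0.0655), on omitting HRD replicate 3 (0.0539) and with only the libraries of HRD and parental cells (0.0584). In HRD against HRA, ETV6 was lower by 0.54 and MYB by 0.36, the MYB call being lost on omitting HRA replicate 1 or 2 (0.0797 and 0.0545) or HRD replicate 2 (0.0620). GATA1, a factor of erythroid and eosinophil lineages that was singled out after its values were seen, had 63 reads in HRD, 8 in HRA and 3 in parental cells.

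The genes whose log2 values correlated best with each called receptor over the 9 libraries are given as a description, since all libraries share the same groups and depth. For CSF2RB these were NDE1, PDIA3 and FOPNL (Pearson r = 0.989, 0.989 and 0.988), all higher in HRD, where NDE1 averaged 77131 ± 11085 against 2299 ± 327 in parental cells. For IL5RA they were ZDBF2, PDE4B and SLC25A40 (0.985, 0.979 and 0.979), with PDE4B at 1775 ± 425 in HRA, 1547 ± 173 in HRD and 717 ± 215 in parental cells. For IL6R they were PUDP, FGFR1 and TOMM40L (0.989, 0.989 and 0.982), with PUDP at 97.2 ± 24.0 in HRA, 563 ± 63.8 in HRD and 518 ± 23.3 in parental cells. For FLT3 they were LOC100505549, ANKRD18A and SUPT20H (0.924, 0.916 and 0.906).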
